A study of Mus musculus with 9 samples.

Results

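A set of 9 genes of the STAT and IRF families was followed in macrophages that lack endogenous tristetraprolin (TTP, gene Zfp36) and carry an inducible transgene. They were chosen by name, with earlier results of these data known. They are Stat2, Stat3, Stat6, Irf1, Irf3, Irf5, Irf7, Irf8 and Irf9, or 9 of the 25494 gene IDs of the deposited table. All 9 had a mean value of at least 10 over the libraries, as did 13159 gene IDs in all. The cells were bone marrow-derived macrophages of the mouse, immortalized with the human oncogenes c-myc and RasG12V, positive for CD11b and F4/80, and transduced with a vector for GFP (the control), GFP-TTP (TTP) or GFP-TTP-AA (TTP-AA). TTP-AA has alanine in place of both serines at which the kinase MK2 phosphorylates TTP. All groups shared the loss of endogenous TTP, doxycycline at 1 µg/ml for 6 h to induce the transgene, and lipopolysaccharide (LPS) at 1 µg/ml for 1 h. Each group had 3 libraries of total RNA depleted of ribosomal RNA. The lines were transduced and sorted pools, the transgene was driven by a tetracycline-responsive promoter, and 0 libraries were made without doxycycline, so that differences of the lines before induction and an effect of the transgene cannot be told apart. The labels call the replicates biological, and the model of the authors had the date of the library as its term beside condition, so the replicate-number term described below stands for library date.

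The deposited value of a gene in a library was a mean fitted by the model of the authors, the product of factors for library, replicate number and group, and not a measured count. Values below were divided by a library factor and are called scaled fitted values. Fitted means hold no scatter between replicates, so no test was made from them, and the p-values in the deposited comparison tables of the authors were not used. A gene was set apart only by a limit of 1.5-fold between group means (0.585 on the log2 scale), given beside the share of all genes past that limit. The error printed after a log2 difference is the standard error from counting reads alone, taking the fitted means as reads. It leaves out variation between replicates and does not account for the shrinkage of genes with few reads described below for Irf7. The spread of a gene between libraries of a group is the replicate-number term, which is nearly the same in every group by construction. Whether the libraries of 2 groups overlap therefore says how large a difference is beside that term and nothing of its reproducibility.

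STAT proteins lie latent in the cytoplasm until a kinase of the JAK family at a cytokine receptor phosphorylates them, upon which they pair, enter the nucleus and bind DNA. IRF proteins bind a related DNA element and act both upstream and downstream of interferon. Activation of TLR4 by LPS leads through the adaptor TRIF to phosphorylation of IRF3 and to transcription of interferon-β, which then acts on the same and on neighbouring cells through STAT2 and IRF9. These are subunits of ISGF3, the factor that binds the interferon-stimulated response element (ISRE). TTP itself binds AU-rich elements in the 3′UTR of mRNAs and recruits the machinery of mRNA decay, and MK2 limits this activity while the kinase is active.

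Zfp36, which encodes TTP, was knocked out in all lines and its coding sequence is part of both TTP transgenes. It had scaled fitted values of 890 to 1744 in GFP, 913 to 1787 in TTP and 1443 to 2828 in TTP-AA. Its log2 difference was 0.03 ± 0.034 for TTP against GFP, so its level gave no check of the TTP label, and 0.70 ± 0.028 for TTP-AA against GFP. The sums of the deposited values, which stand in for depth, ran from 21482954 in TTP replicate 1 to 102613526 in TTP-AA replicate 3. All 9 macrophage markers were present, with summed values of 582454 to 803744 in GFP, 486015 to 662619 in TTP and 667617 to 915441 in TTP-AA. Lyz2 made up most of these sums, with geometric means of 591094, 482090 and 667463 in that order, so they say little of the other markers. Of 22 markers of other cells 15 were in the table, with sums of 394 to 465, 386 to 455 and 415 to 540, and 3 of them had a mean of at least 10. Of these, S100a8, a gene of neutrophils and monocytes, was higher in TTP-AA, with log2 differences of 0.77 ± 0.085 against GFP and 0.75 ± 0.089 against TTP. Zbtb46, a gene of dendritic cells named after its values were seen, was lower there, at -1.10 ± 0.20 and -1.05 ± 0.21, and Flt3 stayed inside the 1.5-fold limit. Adgre1, which encodes F4/80, was lower in TTP than in GFP (log2 difference -0.76 ± 0.011) and higher in TTP-AA than in TTP (1.44 ± 0.010), and Fcgr1, an Fc receptor induced by interferon-γ, differed by -1.21 ± 0.062 for TTP against GFP and 0.83 ± 0.061 for TTP-AA against TTP. The part of these marker differences in the results below was not tested. In bulk RNA, fewer cells with an mRNA and less of it per cell cannot be told apart.

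Of the 9 genes, Irf7, Irf9 and Stat2 were lower in TTP than in GFP by at least 1.5-fold, and none was higher by that much. Among all 13159 genes, 2.85% were lower and 1.03% higher by this limit. In TTP-AA against GFP none of the 9 genes passed the limit in either direction, where 4.28% of all genes were higher and 1.98% lower, and Irf7 lay just inside the limit at 1.49-fold higher. In TTP-AA against TTP, Irf7, Irf9 and Irf5 were higher by at least 1.5-fold and none was lower, beside 6.86% of all genes that were higher and 2.98% that were lower. Irf5 lay just past the limit at 1.52-fold and Stat2 inside it at 1.36-fold. The median log2 difference of the 9 genes was -0.20 for TTP against GFP, 0.07 for TTP-AA against GFP and 0.44 for TTP-AA against TTP, and that of all genes was within 0.002 of 0 in each. These comparisons share libraries, since GFP serves both transgenes and TTP enters as both numerator and denominator, so their values are set side by side and not counted as separate evidence. The 9 genes were chosen with earlier results of these data known. The shares and medians of all genes beside theirs are therefore a description and no test of the set.

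**Figure D1:**
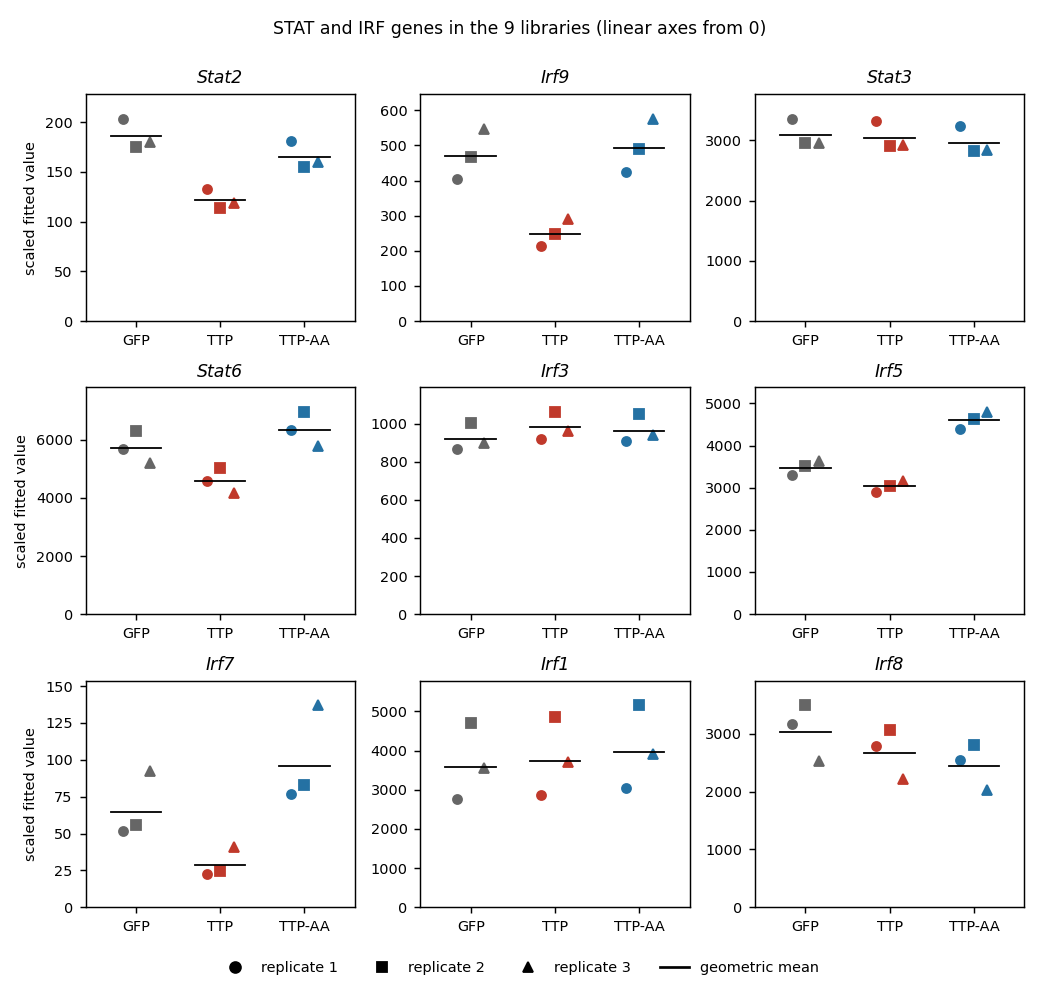
Scaled fitted values of the 9 STAT and IRF genes in each of the 9 libraries, on linear axes that start at 0, with symbols for the replicate number and a bar for the geometric mean of the group (n = 3). For Irf7, Irf9, Stat2, Stat6 and Irf5 all TTP libraries lie below those of both other groups. For Irf5 alone all TTP-AA libraries lie above both other groups, and Stat3 and Irf3 lie at like levels in all groups.

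The ISGF3 subunits Stat2 and Irf9 were both lower in TTP. Stat2 encodes the STAT that carries the transactivation domain of ISGF3 (ENSMUSG00000040033, chromosome 10, 128270559 to 128292849, plus strand, GRCm38, protein coding, no exon shared with another gene). Its scaled fitted values were 204, 175 and 181 in GFP replicates 1 to 3, 133, 114 and 118 in TTP, and 181, 155 and 161 in TTP-AA. All TTP libraries lay below all GFP and all TTP-AA libraries, while GFP and TTP-AA overlapped. The log2 difference was -0.61 ± 0.10 for TTP against GFP (1.53-fold lower), -0.17 ± 0.082 for TTP-AA against GFP and 0.44 ± 0.097 for TTP-AA against TTP. After the median difference of all genes on chromosome 10 was taken off, the first value was -0.48, which is inside the 1.5-fold limit, as it was with a pseudocount of 10.

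Irf9 encodes the subunit that gives ISGF3 its DNA sequence preference (ENSMUSG00000002325, chromosome 14, 55603571 to 55610030, plus strand, protein coding). In GFP its scaled fitted values were 403, 468 and 547, in TTP 214, 247 and 291, and in TTP-AA 425, 491 and 576. The TTP libraries stood at about the same distance below both other groups, whose libraries interleaved. The log2 difference was -0.92 ± 0.068 for TTP against GFP, or 1.89-fold lower, a size larger than that of 98.4% of all genes. It was 0.07 ± 0.049 for TTP-AA against GFP and 0.99 ± 0.063 for TTP-AA against TTP, or 1.99-fold higher. Of its exonic bases, 2.3% are shared with Rnf31 on the same strand, and Rnf31 had a log2 difference of -0.08 for TTP against GFP and 0.10 for TTP-AA against TTP.

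Irf7 had the largest differences of the 9 genes in each comparison. It encodes the IRF that drives transcription of interferon-α genes and that is itself induced by ISGF3 (ENSMUSG00000025498, chromosome 7, 141262706 to 141266481, minus strand, protein coding). Its scaled fitted values were 51.8, 56.0 and 92.2 in GFP, 22.9, 24.6 and 40.8 in TTP, and 77.1, 83.1 and 137 in TTP-AA. The TTP libraries lay below all others. GFP and TTP-AA overlapped, because replicate 3 stood above replicates 1 and 2 in every group and the range of this replicate-number term was 0.83 on the log2 scale. The log2 difference was -1.18 ± 0.19 for TTP against GFP (2.27-fold lower), 0.57 ± 0.12 for TTP-AA against GFP (1.49-fold higher) and 1.75 ± 0.17 for TTP-AA against TTP (3.37-fold higher). In size this exceeded 99.2% of all genes for TTP against GFP, 93.5% for TTP-AA against GFP and 99.1% for TTP-AA against TTP.

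Irf7 was also the least abundant of the 9 genes, and the mean of its fitted values was 0.903 of the mean normalized count that the authors deposited for it, where the median gene had a ratio of 1.00. The fitted values thus stand somewhat below its average measured count. In this table the differences of genes with few reads are drawn towards 0. For 11217 genes with a mean under 5 the SD of the log2 difference TTP against GFP was 0.054, whereas counting error alone had a median of 1.82. A fitted difference of a gene with few reads can therefore be smaller than the one in the reads. Phrf1 on the opposite strand shares 1.2% of the exonic bases of Irf7 and had log2 differences of 0.04 for TTP against GFP and -0.09 for TTP-AA against TTP, with a geometric mean of 1881 in GFP, so whether strand was used in counting bears on Irf7, and this was not given in the sources used here.

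**Figure D2:**
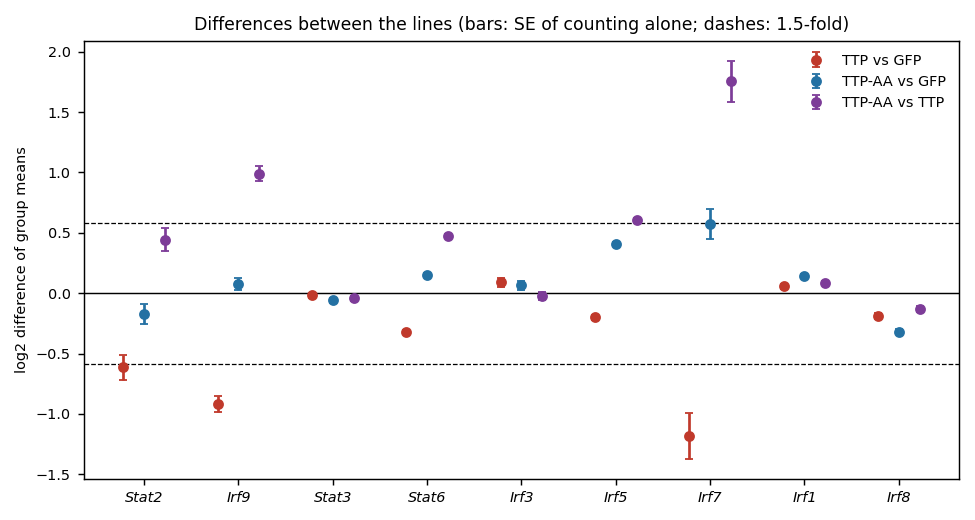
Log2 difference of group means for each of the 9 genes in the 3 comparisons, with bars for the standard error from counting reads alone and dashed lines at 1.5-fold (0.585). Irf7 spans the widest range, from -1.18 for TTP against GFP to 1.75 for TTP-AA against TTP, followed by Irf9, while Stat3, Irf3 and Irf1 stay within 0.15 of 0.

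The promoters of Stat2, Irf9 and Irf7 are shown because these genes were lower together in TTP and because ISGF3 acts on DNA. All 9 genes matched the RefSeq promoter table (GRCm38.p6), which gives 250 bases before and 50 bases after the start of transcription, and where a gene had more than 1 start the first listed was used. The windows are written 5′ to 3′ on the strand of the gene, and capitals mark matches on either strand to GAAANNGAAA, the core of the ISRE, to AANNGAAA, the shorter core that most IRF proteins contact, and to TTCNNNGAA, the STAT dimer site (GAS). A match to GAAANNGAAA always holds one to AANNGAAA. The windows are chr10:128270248-128270547 (plus strand), chr14:55603735-55604034 (plus strand) and chr7:141266375-141266674 (minus strand).
Stat2: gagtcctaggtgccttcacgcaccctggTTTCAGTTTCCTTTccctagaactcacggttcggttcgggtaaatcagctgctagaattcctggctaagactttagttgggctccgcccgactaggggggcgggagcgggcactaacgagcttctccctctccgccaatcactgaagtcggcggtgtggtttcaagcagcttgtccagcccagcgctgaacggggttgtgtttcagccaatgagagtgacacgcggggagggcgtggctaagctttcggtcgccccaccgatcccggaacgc
Irf9: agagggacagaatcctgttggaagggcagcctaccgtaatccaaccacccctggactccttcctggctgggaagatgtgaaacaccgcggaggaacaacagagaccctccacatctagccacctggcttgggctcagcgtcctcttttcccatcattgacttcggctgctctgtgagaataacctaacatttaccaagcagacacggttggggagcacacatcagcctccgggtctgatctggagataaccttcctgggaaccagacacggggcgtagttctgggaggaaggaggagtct
Irf7: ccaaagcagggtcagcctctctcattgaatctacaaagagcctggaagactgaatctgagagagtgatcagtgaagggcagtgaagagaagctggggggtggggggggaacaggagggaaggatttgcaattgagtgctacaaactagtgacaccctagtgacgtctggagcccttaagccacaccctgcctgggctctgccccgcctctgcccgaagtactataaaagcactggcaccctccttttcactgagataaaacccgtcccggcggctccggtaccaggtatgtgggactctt

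Only the window of Stat2 among the 9 genes held GAAANNGAAA, with its first base at -222 from the start, and AANNGAAA was met there and in Stat6. The former was found in 3.49% and the latter in 24.16% of 27025 promoters, 1 for each gene. Among 27 interferon-stimulated genes with a window, 13 held GAAANNGAAA (48.15%), 20 held AANNGAAA and 8 held TTCNNNGAA. The windows of Irf9 and Irf7 held none of these letters, which says only that they are not in these bases. TTCNNNGAA was met in Irf1 (first base at -90) and at 2 places in Irf8 (-171 and -153), beside 8.47% of all promoters. Those sites, shown for comparison with the STAT genes, lie at chr11:53769909-53769947 and chr8:120736172-120736228 on the plus strand.
Irf1: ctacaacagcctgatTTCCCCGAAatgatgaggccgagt
Irf8: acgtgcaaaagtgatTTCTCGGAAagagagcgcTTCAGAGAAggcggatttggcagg

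Irf5 and Irf3, both activated by phosphorylation downstream of pattern recognition receptors, went separate ways. Irf5 takes part in the induction of inflammatory cytokines through the adaptor MyD88 (ENSMUSG00000029771, chromosome 6, 29526625 to 29541871, plus strand, protein coding). Its scaled fitted values were 3310, 3511 and 3621 in GFP, 2889, 3043 and 3165 in TTP, and 4391, 4641 and 4803 in TTP-AA. The groups did not overlap in any of the comparisons, with TTP lowest and TTP-AA highest. The log2 difference was -0.20 ± 0.022 for TTP against GFP, 0.41 ± 0.018 for TTP-AA against GFP and 0.60 ± 0.019 for TTP-AA against TTP. The last of these was inside the 1.5-fold limit when all genes entered the scaling and when the median of chromosome 6 was taken off. Irf5 was the one gene of the 9 whose TTP-AA libraries stood apart from the GFP libraries, which 24.9% of all genes also did. Of its exonic bases 14.1% are shared with Tnpo3 on the opposite strand, whose log2 differences were 0.07, 0.13 and 0.06 in the same order and whose geometric mean in GFP was 6380.

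Irf3, the factor that is present before stimulation and starts transcription of interferon-β (ENSMUSG00000003184, chromosome 7, 44997648 to 45002848, plus strand, protein coding), had values of 865, 1004 and 900 in GFP, 923, 1063 and 961 in TTP, and 907, 1049 and 943 in TTP-AA. All groups overlapped. Its log2 differences were 0.09 ± 0.040 for TTP against GFP, 0.07 ± 0.036 for TTP-AA against GFP and -0.02 ± 0.036 for TTP-AA against TTP. Bcl2l12 on the opposite strand shares 2.6% of its exonic bases.

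Stat6 and Stat3 serve further cytokines. Stat6, the transcription factor of the IL-4 and IL-13 receptors (ENSMUSG00000002147, chromosome 10, 127642986 to 127660957, plus strand, protein coding), had values of 5699, 6293 and 5210 in GFP, 4573, 5013 and 4187 in TTP, and 6336, 6969 and 5790 in TTP-AA. The TTP libraries lay below those of GFP and TTP-AA, which overlapped. The log2 difference was -0.32 ± 0.017 for TTP against GFP, 0.15 ± 0.014 for TTP-AA against GFP and 0.47 ± 0.016 for TTP-AA against TTP, inside the limit each time. With the median of chromosome 10 taken off, the last value was 0.31. Stat3, which transmits signals of IL-6 and IL-10 (ENSMUSG00000004040, chromosome 11, 100885098 to 100939540, minus strand, protein coding), had values of 2952 to 3362 in GFP, 2904 to 3329 in TTP and 2830 to 3233 in TTP-AA. Its log2 differences of -0.02 ± 0.022, -0.06 ± 0.020 and -0.04 ± 0.021 were smaller than its replicate-number term of 0.19.

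Irf1 and Irf8 act mainly through the amount of protein present. Irf1 is transcribed at once on activation of NF-κB (ENSMUSG00000018899, chromosome 11, 53770014 to 53778374, plus strand, protein coding). Its values were 2760, 4692 and 3548 in GFP, 2875, 4852 and 3701 in TTP, and 3053, 5169 and 3922 in TTP-AA, so replicate 2 was highest in every group and the groups overlapped throughout. The log2 differences of 0.06 ± 0.020 for TTP against GFP, 0.14 ± 0.018 for TTP-AA against GFP and 0.09 ± 0.018 for TTP-AA against TTP were small beside the replicate-number term, which ranged over 0.76.

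Irf8, which directs the development of macrophages and dendritic cells (ENSMUSG00000041515, chromosome 8, 120736358 to 120756694, plus strand, protein coding), was highest in GFP and lowest in TTP-AA, an order that no other of the 9 genes but Stat3 had. Its values were 3164, 3503 and 2526 in GFP, 2786, 3062 and 2227 in TTP, and 2543, 2804 and 2029 in TTP-AA. All groups overlapped. Its log2 difference was -0.19 ± 0.023 for TTP against GFP, -0.32 ± 0.021 for TTP-AA against GFP and -0.13 ± 0.022 for TTP-AA against TTP, beside a replicate-number term that ranged over 0.47. Across the 9 genes, 5 had groups apart for TTP against GFP (Stat2, Irf9, Stat6, Irf5 and Irf7) and the same count was met for TTP-AA against TTP, where 19.5% and 30.9% of all genes were apart.

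Irf1 and Irf8 were also the members with the AU-rich heptamer that TTP prefers. In the 3′UTR of the transcript with the longest coding sequence (GENCODE M21), TATTTAT was found in 2 of the 9 genes, beside 27.41% of 11417 genes with a mean of at least 10, and the shorter ATTTA in 5 of 9, beside 66.07%. The heptamer, in capitals, lies at chr11:53777103-53777131 in Irf1 and at chr8:120756613-120756641 in Irf8, both on the plus strand. These windows are shown because they are the only such sites of the 9 genes, and they are not evidence of binding.
Irf1 3′UTR: gcctttgcattTATTTATatagtgccttg
Irf8 3′UTR: tagtgtccaaaTATTTATttttgtattct
The 3′UTRs of Irf7 (42 bases), Irf9 (999 bases) and Stat2 (1476 bases) held no TATTTAT, and ATTTA was met in that of Irf9 alone among them. Neither gene with the heptamer passed the 1.5-fold limit in any comparison, and none of the genes that passed it for TTP against GFP held it. Among so few genes this says nothing of a link between the motif and the differences. Whether TTP acts on any of these mRNAs was not tested.

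Levels between genes were compared per kilobase of merged exon length. This length takes in all annotated exons of a gene, so the order depends on the annotation. In GFP they were in descending order 1299 for Stat6, 1197 for Irf5, 901 for Irf1, 430 for Irf8, 324 for Stat3, 268 for Irf3, 87.1 for Irf9, 31.4 for Stat2 and 17.1 for Irf7 (scaled fitted value per kilobase, geometric mean of 3 libraries). Libraries of Stat6 and Irf5 and those of Irf5 and Irf1 overlapped, and all other neighbours in this order were apart. In TTP the 3 least abundant genes stood at 46.1 for Irf9, 20.5 for Stat2 and 7.52 for Irf7. In TTP-AA Irf5 had the highest level, 1586, with libraries that overlapped those of Stat6 at 1442, and Irf7 at 25.4 overlapped Stat2 at 27.9. The genes that passed the limit for TTP against GFP were thus the 3 of lowest level.

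Further genes of both families were measured with the same scale. Stat5a, Stat5b and Irf2 had a mean of at least 10, and none of these 3 passed 1.5-fold in any comparison. Stat5a, a mediator of GM-CSF signals, had log2 differences of -0.25 ± 0.053 for TTP against GFP, 0.31 ± 0.043 for TTP-AA against GFP and 0.56 ± 0.047 for TTP-AA against TTP, whereas the closely related Stat5b had -0.19 ± 0.034, -0.46 ± 0.031 and -0.27 ± 0.033. Irf2, a competitor of IRF1 on DNA, had -0.03 ± 0.066, -0.29 ± 0.059 and -0.26 ± 0.062, with a replicate-number term that ranged over 1.27. Stat4 and Irf4 had means of 0.504 and 9.81, at which no direction is given.

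**Figure D3:**
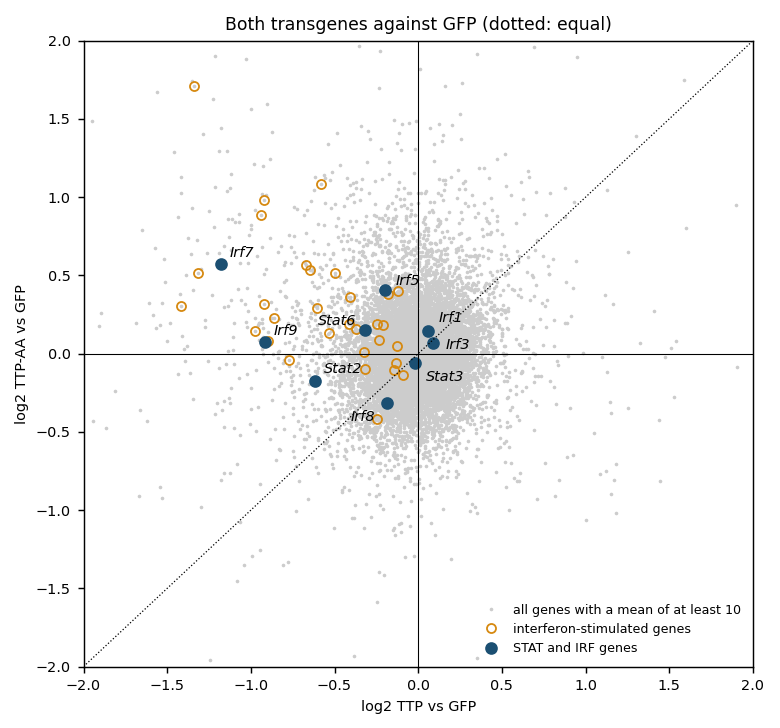
Log2 difference TTP-AA against GFP against log2 difference TTP against GFP for all 13159 genes (grey points), 32 interferon-stimulated genes (open circles) and the 9 STAT and IRF genes (filled, named), with axes limited to 2 in size, which leaves out 47 genes, 1 of them interferon-stimulated. Of the 9 genes 7 lie to the left of 0, with Irf7, Irf9 and Stat2 the farthest. All the interferon-stimulated genes and 6636 of the 13159 genes also lie there, and the axes share the GFP libraries.

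For each of the 9 genes the 3 nearest of 11236 genes with a mean of at least 50 were sought by the distance between their pairs of log2 differences, TTP against GFP and TTP-AA against GFP. Nearest to Irf9 were Oas1a, which encodes an enzyme of the antiviral response, at a distance of 0.019, then Cd22 and Epsti1. Nearest to Stat2 were Hdac9, Irgm2, which encodes a GTPase induced by interferon, and R3hdm2, and to Irf7 Arhgef3, Fxyd2 and Svip. Of the genes named for Irf9, Stat2 and Irf7, only Oas1a is on the list of interferon-stimulated genes described below. R3hdm2 lies near Stat6 on chromosome 10, the chromosome of Stat2, whose genes had a median log2 difference of -0.13 for TTP against GFP. Most genes lie near 0 in both differences, so the number of genes close to a member falls as its differences grow and is no separate result. Few genes lay within 0.1 of the members just named, 8 for Irf9, 15 for Stat2 and 1 for Irf7. Near the other members there were many, from 124 for Irf5 (led by Elf4, Gm13157 and Rassf4) and 173 for Stat6 (Lrrc8b, Armc3 and Msra) to 302 for Irf8 (Fxr1, Mapk9 and Slco4a1), 1064 for Irf1 (Zbtb17, Usp39 and Rapgef1), 1289 for Irf3 (Cnbp, Brip1os and Higd1a) and 1335 for Stat3 (Ap2b1, Pnrc2 and Sel1l).

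The genes around these factors were described from lists that were chosen with earlier results of these data known. Shares of all genes past the limit are repeated here for comparison with every list below. For TTP against GFP 2.85% were lower and 1.03% higher. For TTP-AA against GFP 4.28% were higher and 1.98% lower, and for TTP-AA against TTP 6.86% were higher and 2.98% lower. Interferon-stimulated genes are the targets of ISGF3. Of 32 with a mean of at least 10, 14 were lower by at least 1.5-fold for TTP against GFP and none higher, with a median of -0.51. The remaining 18 did not pass the limit, with values below 0 that reached up to -0.09, some of them close in size to their counting error. For TTP-AA against GFP 4 were higher by that limit and none lower (median 0.21). For TTP-AA against TTP 19 were higher and none lower (median 0.75), and the range ran from -0.17 for Mx1 to 3.05 for Oasl1. Oasl1, a protein related to oligoadenylate synthetases, had geometric means of 214, 84.5 and 700 in GFP, TTP and TTP-AA, and Cmpk2, a mitochondrial nucleotide kinase, had 274, 66.5 and 405. Trim25, a ubiquitin ligase that acts on RIG-I, lay at the low end with a log2 difference of -0.05 ± 0.014 for TTP-AA against TTP.

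Among the receptors and kinases that activate STATs, 1 of 17 was lower for TTP against GFP by at least 1.5-fold, 1 was higher and 1 lower for TTP-AA against GFP, and 6 were higher and 1 lower for TTP-AA against TTP (medians -0.14, 0.29 and 0.41). Il10ra, the ligand-binding chain of the IL-10 receptor, had log2 differences of -0.70 ± 0.028 for TTP against GFP and 0.96 ± 0.025 for TTP-AA against TTP. Ifnar1, a chain of the type I interferon receptor, had -0.25 ± 0.018 and 0.76 ± 0.016. Il13ra1, a chain of the IL-13 receptor, went the other way, with 0.35 ± 0.040 and -0.85 ± 0.039, and Il6st, the shared chain of the IL-6 family of receptors, had -0.03 ± 0.026 and -0.41 ± 0.025. Of 6 ligands with enough reads, none passed the limit for TTP against GFP and 1, Osm, was lower for TTP-AA against GFP and TTP-AA against TTP, with 1979, 1519 and 957 in GFP, TTP and TTP-AA. Ifnb1, the interferon that feeds STAT2, stood at 67.0, 61.9 and 75.4, with log2 differences of -0.11 ± 0.15 for TTP against GFP and 0.28 ± 0.13 for TTP-AA against TTP. Il6 had -0.05 ± 0.11 and 0.35 ± 0.098.

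Of 23 sensors, adaptors and kinases upstream of the IRFs, 3 were lower for TTP against GFP, 1 was higher for TTP-AA against GFP and 4 were higher for TTP-AA against TTP by at least 1.5-fold (medians -0.03, 0.07 and 0.19). The 3 lower genes were Ifih1, Ddx58 and Dhx58, at -2.35 ± 0.13, -1.38 ± 0.077 and -1.19 ± 0.105. Dhx58 was named after its values were seen. Ifih1 and Ddx58, the cytosolic RNA sensors MDA5 and RIG-I, led with 3.71 ± 0.12 and 1.43 ± 0.073 for TTP-AA against TTP. Tlr4, the receptor of LPS, had -0.16 ± 0.019, and Mb21d1, which encodes the DNA sensor cGAS, -0.15 ± 0.032. Of 16 inhibitors 1 was lower for TTP against GFP, 1 higher for TTP-AA against GFP and 2 higher for TTP-AA against TTP (medians -0.09, 0.09 and 0.19). A count of 1 in lists of these sizes lies near the shares of all genes (2.85% lower for TTP against GFP, 4.28% higher for TTP-AA against GFP). Usp18, which blocks the interferon receptor, had log2 differences of -1.81 ± 0.098 for TTP against GFP and 1.57 ± 0.095 for TTP-AA against TTP, and Socs1, an inhibitor of JAK kinases, -0.22 ± 0.10 and 1.53 ± 0.084. Ptpn1 and Irf2bp1 were lowest for TTP-AA against TTP, at -0.23 ± 0.017 and -0.17 ± 0.055.

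**Figure D4:**
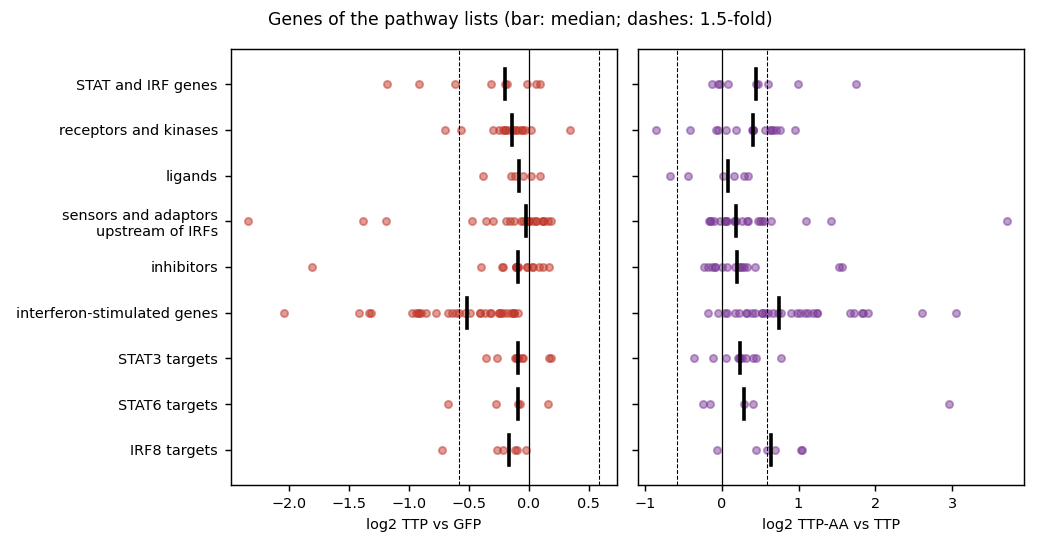
Log2 differences TTP against GFP (left) and TTP-AA against TTP (right) of the 9 STAT and IRF genes and of the genes of 8 lists with a mean of at least 10, with a bar at the median of each and dashed lines at 1.5-fold. The interferon-stimulated genes have the lowest median for TTP against GFP, -0.51, and the highest for TTP-AA against TTP, 0.75.

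Genes known as targets of individual factors gave a mixed picture. Of 11 STAT3 targets, none passed the limit for TTP against GFP and 1, Bcl3, a regulator of NF-κB, was higher for TTP-AA against GFP and TTP-AA against TTP (0.78 ± 0.062 for the latter, medians of the list -0.09, 0.13 and 0.24). Bcl6 followed with 0.44 ± 0.048, and Fos and Hif1a were lowest with -0.36 ± 0.028 and -0.11 ± 0.013. Of 5 STAT6 targets with enough reads, Pparg, a nuclear receptor of lipid metabolism, was at 32.8 in GFP, 20.5 in TTP and 160 in TTP-AA and passed the limit in all 3 comparisons. Il4ra (0.41 ± 0.035), Mrc1 (-0.15 ± 0.066) and Egr2 (-0.24 ± 0.058) did not for TTP-AA against TTP, and the medians were -0.09, 0.22 and 0.30. Of 6 IRF8 targets 1 was lower for TTP against GFP, 1 higher for TTP-AA against GFP and 4 higher for TTP-AA against TTP (medians -0.17, 0.40 and 0.64). These were led by Ctss, a protease of antigen processing, with 1.04 ± 0.010, and Cybb, a subunit of the phagocyte oxidase, with 1.03 ± 0.008, whereas Cst3, a protease inhibitor, had -0.06 ± 0.007. The log2 difference of Irf8 itself in this comparison was -0.13.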

How the data were processed

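RNA of 9 libraries was measured, 3 each of GFP, TTP and TTP-AA, grouped by the sample titles. Per the study's methods and processing notes, the authors mapped reads to GRCm38 with TopHat, allowing up to 2 placements, and fitted DESeq2 (version 1.6.3) with library date and condition as terms; HTSeq is named for counting, and strand use is not given in the sources used here. The deposited signal per library, named normalized counts, held no 0 in any of 25494 gene IDs (25504 lines), and the log2 values, centred, had 4 nonzero singular values out of 8 free ones. Ratios of same-numbered libraries were constant to 1.6e-14. The values are therefore fitted means, with no scatter to test. The deposited comparison tables further hold the authors' mean normalized count, used here as their mean signal, and log2 fold changes, standard errors, test statistics and p-values, which were not used.

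Libraries were scaled by the median ratio to the geometric mean over 13159 gene IDs with a mean of at least 10, and group means of log2 values were compared with no pseudocount (Python 3.11.15, numpy 2.4.6, pandas 2.3.3). The planned limma fit with a replicate block could not be made, since no scatter is left. The steps were checked on simulated data with known differences. Counting errors took the fitted means as reads and cover counting only. Named besides the members were other genes of both families (some are not reported here), the 2 highest and 2 lowest genes of each list for TTP-AA against TTP with a mean of at least 50, and the 3 nearest genes of each member. Zfp36 and the marker genes were added as checks, and Dhx58 was named after its values were seen. The members and lists were chosen with earlier results of these data known. Positions and lengths came from GENCODE M21 on GRCm38, a later annotation than that of the authors. Alternatives were other scalings, filters, pseudocounts and limits, the chromosome median taken off and each replicate number left out.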

Additional observations from a re-analysis of the deposited data

How the results depend on the processing

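The 27 log2 differences (9 genes in 3 comparisons) were recomputed under 11 other settings, which gave 297 values. Of these 292 moved by less than the SD of the gene over the GFP libraries, which is its replicate-number term and no measure of error. For Irf7 that SD was 0.45, so a move from 1.75 to 1.46 for TTP-AA against TTP with a pseudocount of 10 counted as less. The 292 also include the settings that leave out a replicate number, which can hardly move fitted values. The other 5 moved by more than that SD, all with the median of the chromosome taken off. These were Stat2 at -0.48 for TTP against GFP and 0.28 for TTP-AA against TTP, Irf5 at -0.13 for TTP against GFP, Stat6 at 0.31 for TTP-AA against TTP, and Stat3 at 0.089 for TTP-AA against TTP, which turned its sign from -0.041. Stat3 also turned its sign for TTP-AA against GFP, from -0.058 to 0.045, by less than that SD. No gene past the limit turned its sign. Of the members past 1.5-fold, Irf7 and Irf9 stayed past it under all scalings, filters and pseudocounts, for TTP against GFP and TTP-AA against TTP. Stat2 was lost for TTP against GFP with a pseudocount of 10 and with the chromosome median off, and Irf5 for TTP-AA against TTP with all genes in the scaling and with the chromosome median off, which left 2 genes each time. A limit of 2-fold left 1 gene, Irf7, in each of these comparisons. A lower limit gave 2 genes for TTP-AA against GFP (Irf5 and Irf7) and 5 for TTP-AA against TTP.

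Leaving out each replicate number kept the counts at 3, 0 and 3 and moved a difference by at most 0.0053, which follows from the fitted values and says nothing of stability. No paired analysis was possible because the table holds fitted means without scatter around the replicate-number term. The fit without that term was not run, for the same reason. Depth limits Stat4 and Irf4.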

Other observations

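The 9 genes were set beside their neighbours in the genome, that is, 5 genes with a mean of at least 10 on either side. Irf7 was below all 10 neighbours for TTP against GFP and above all 10 for TTP-AA against TTP, where the medians of the neighbours were 0.03 and 0.01 on the log2 scale. The same held for Irf9, whose neighbours had medians of -0.09 and -0.06. Of all genes, only 0.64% lay below Irf7 and 1.31% below Irf9 for TTP against GFP. For TTP-AA against TTP 99.2% and 97.3% lay below them, so a place beyond any 10 genes was likely beforehand. Stat2 was below all 10 neighbours for TTP against GFP, but these had a median of -0.24 themselves, and all tested genes of chromosome 10 had one of -0.13. Stat6, on the same chromosome, was below 9 of 10 neighbours for TTP against GFP, and the neighbours had a median of -0.19. Irf5 was below all of its neighbours for TTP against GFP and above 9 of 10 for TTP-AA against TTP, and their medians were 0.03 in both.

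The replicate-number term differed between the genes. Over all groups, Irf1 had geometric means of 2894, 4901 and 3721 in replicates 1 to 3, and Irf2 had 429, 178 and 368, so replicate 2 was highest for Irf1 and lowest for Irf2. Irf7 stood at 45.0, 48.5 and 80.3 and Irf9 at 332, 384 and 451, with replicate 3 highest for both. In the model of the authors this term stands for library date.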
